A study of Mus musculus with 4 samples.

Results

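The 10 genes described here are p53 targets and BCL2-family regulators of cell death: Cdkn1a, Mdm2, Ccng1, Bax, Bbc3, Pmaip1, Trp53inp1, Tnfrsf10b, Bcl2l11 and Mcl1. They were taken by symbol from the 27998 genes counted in single cells of mouse small intestinal crypts, and every one of the 10 was found. All mice were 8 weeks old and carried the floxed allele of Slc7a5, a transporter that imports large neutral amino acids. The Slc7a5 fl/fl mice had no Cre and served as controls, and the Slc7a5 IEC-KO mice were their sex- and age-matched littermates with Cre under the villin promoter, which is active across the intestinal epithelium rather than in one of its cell types. Crypt cells that were alive, EpCAM+ and CD45- were sorted and counted with a droplet method that tags the 3′ end of each transcript with a unique molecular identifier (UMI), so that 1 UMI stands for 1 captured transcript. There were 2 libraries per genotype. The records name 4 mice without tying them to libraries, so p-values cover the spread among these libraries only. The comparisons ask how the 10 genes differed between the genotypes. They also ask how the 10 differed between knockout cells with and without a sampled UMI of the stress gene Ddit3 at equal depth.

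The transcription factor p53 is kept low by Mdm2 and, when stabilised by DNA damage or other stress, switches on genes that halt the cell cycle or prepare the cell for death. Death through mitochondria is decided within the BCL2 family, in which the guardians (Mcl1 among them) hold back the pore former Bax, and small BH3-only proteins (Bbc3, Pmaip1, Bcl2l11) release it. Lack of amino acids engages a separate pathway, the integrated stress response, through Atf4 and Ddit3. Ddit3 is known to raise BH3-only genes, so that the 2 pathways can act on the same members of the BCL2 family.

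Several of the 10 genes are textbook p53 targets, and stretches of their promoters are shown so that the letters p53 is known to recognise can be seen beside the values. The 250 bases before each annotated start were read from RefSeq (GRCm38.p6), and 7 of the 10 genes had such a window. A p53 half-site, the decamer that p53 binds in pairs, was searched on both strands and was found for 4 genes. It occurred in 7.13% of 32851 windows of this length. Genes with several starts had several windows and counted with a hit in any of them, so these figures are not like for like. Another window of Cdkn1a, at chr17:29093519-29093768, had no half-site. The stretches are written 5′ to 3′ on the strand of the gene, with the decamers in capitals.
Cdkn1a, chr17:29090894-29090949, plus strand: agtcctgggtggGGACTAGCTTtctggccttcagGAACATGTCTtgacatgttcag
Mdm2, chr10:117710923-117710956, minus strand: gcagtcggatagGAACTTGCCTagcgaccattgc
Ccng1, chr11:40755450-40755483, minus strand: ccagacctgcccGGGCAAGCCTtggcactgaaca
Bax, chr7:45467078-45467111, minus strand: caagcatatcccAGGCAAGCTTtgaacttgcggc
Bbc3, Bcl2l11 and Mcl1 had no such decamer in any of their windows, and Trp53inp1, Tnfrsf10b and Pmaip1 had no window to search. The C/EBP-ATF motif TGATGNAA, searched on both strands because Ddit3 and Atf4 bind it as partners, was in none of the 7 genes' windows and in 3.45% of all windows. These matches describe letters only and show no binding.

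The libraries held 3633 and 3217 cells (fl/fl) and 10004 and 9644 cells (IEC-KO), with 87922473 to 127094508 UMIs each. Cells in which alpha-defensin (Defa) genes took 30% or more of UMIs formed the Paneth class: 2102 and 2007 cells in fl/fl and 2830 and 3122 in IEC-KO. Cells under 20% formed the other class, with 1449, 1127, 6266 and 5709 cells, and 82 to 908 cells per library lay between the classes and were left out. Median depth was lower in IEC-KO in both classes, at 12548.5 and 18370 UMIs against 45862 and 52128 in Paneth cells and at 5685 and 8002 against 10580 and 11467 in other cells. The shallowest cell kept held 8909 and 9670 UMIs in fl/fl but 3843 and 5858 in IEC-KO. The median IEC-KO other cell was thus shallower than any fl/fl cell kept. Thinning, used below, evens out depth but not which cells were kept. Within 5 points of the 30% boundary lay 90 and 65 cells in fl/fl and 922 and 869 in IEC-KO. The other class was mixed: goblet markers took 4% or more of UMIs in 76.1% and 73.0% of its fl/fl cells and in 86.7% and 88.5% of its IEC-KO cells, while 33.6% and 33.1% against 18.0% and 20.5% held a UMI of the division genes Mki67 or Top2a. Markers of Paneth cells other than defensins, all 6 of them detected, summed to 54943 to 76906 CPM (UMIs of a gene per 1000000 UMIs) in the Paneth class and to 19189 to 20109 CPM in the other class. As a share of all UMIs, goblet markers summed to 42768 and 38077 CPM in fl/fl and to 53947 and 57718 CPM in IEC-KO Paneth cells. Relative to the typical gene, the scale of the results below, 1 of the 7 was called higher there and 4 lower (median log2 −0.44). Their part in the results for Paneth cells was not tested. Immune markers summed to at most 1.00 CPM in a class of a library, with Cd8a and Gzmb at 0 throughout. Pairs of libraries shared 14 to 132 cell barcodes.

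Slc7a5 itself, the deleted gene, was counted at 1.57 and 1.51 CPM in fl/fl and at 2.94 and 3.67 CPM in IEC-KO. It was higher, not lower, in the libraries labelled IEC-KO (log2 fold change 1.11). The floxed exon is the first one and reads came from the 3′ end, so these counts do not check the deletion, and every direction given below rests on the library labels. The Paneth class held 57.9% and 62.4% of cells in the libraries labelled fl/fl and 28.3% and 32.4% in those labelled IEC-KO.

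Between genotypes, 2 of the 10 genes stood out in both cell classes: Trp53inp1 and Bbc3 were called higher in Paneth cells and in other cells. The Bbc3 call in Paneth cells was lost when cells were thinned to equal depth. In other cells with under 4% of UMIs in goblet markers neither gene was called. Ccng1 was called lower in both classes, and its call in other cells held in 11 of 20 alternatives. The cell cycle inhibitor Cdkn1a and p53's inhibitor Mdm2, the genes most often read as signs of p53 activity, did not pass the test in either class. The stress genes rose far more, with Trib3 higher by 6.63 and Ddit3 by 3.50 on the log2 scale in Paneth cells. Values below are CPM, with the UMIs of all cells of 1 class and library added up, after scaling by the trimmed mean of M-values (TMM), which sets the typical gene's change to about 0. Tests are edgeR quasi-likelihood tests with Benjamini-Hochberg adjustment over all genes tested, and a gene is called at an adjusted p under 0.05. In Paneth cells 42.1% of all 12696 genes tested were called, and in other cells 31.9% of 12323, so a count of 5 of 10 members called in Paneth cells and 4 of 10 in other cells is near this background and says nothing by itself about the members.

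Markers of other cell types moved with the genotype as well. Enterocyte markers were lower in IEC-KO in both classes, 10 of 10 called in each (median log2 −1.46 in Paneth and −0.80 in other cells), with library size alone too. In Paneth cells 7 of 8 division markers, 5 of 6 tuft cell markers and 4 of 7 enteroendocrine markers were called lower. Of the enteroendocrine markers 1 was called higher. With library size alone 1, 1 and 0 were called lower and 1, 1 and 6 higher, in the same order. In other cells all 8 division markers and 5 of 6 stem cell markers were called lower and 5 of 7 enteroendocrine markers higher (median 0.89), and with library size alone these counts were 8, 6 and 5. The part of these shifts in the members' values was not tested.

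**Figure D1:**
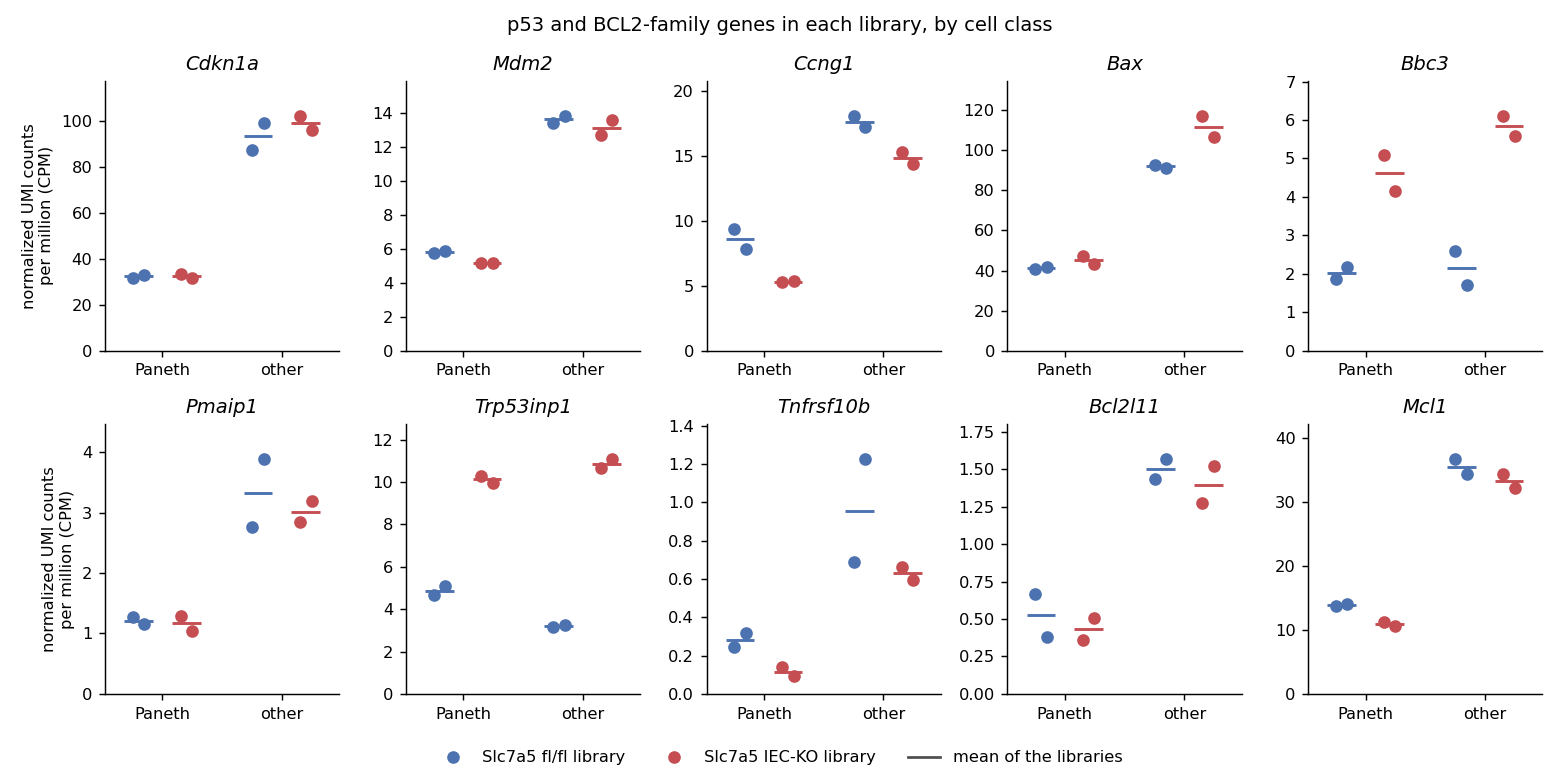
CPM (vertical axis, from 0, own scale for each gene) of the 10 genes in the 4 libraries, with Paneth and other cells side by side. Each point is 1 library and each bar the mean of the libraries of a genotype; the classes were scaled separately, so heights are to be compared between genotypes within a class. The Slc7a5 IEC-KO points lie clear above the fl/fl points in both classes for Bbc3 and Trp53inp1, and mix with them for Cdkn1a.

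The BH3-only gene Bbc3 (chr7:16308393-16318205, plus strand, GRCm38) encodes PUMA, which binds all the guardians. In Paneth cells it was counted at 1.86 and 2.18 CPM in fl/fl and at 5.09 and 4.16 CPM in IEC-KO, from 145, 172, 256 and 355 UMIs. Both knockout libraries lay above both controls, a 2.26-fold difference (log2 1.18, SE 0.13, adjusted p = 1.55e-06). In other cells it stood at 2.59 and 1.70 CPM in fl/fl and at 6.10 and 5.59 CPM in IEC-KO, from 45, 25, 230 and 272 UMIs. The groups again did not overlap, with a 2.67-fold difference (log2 1.42, SE 0.19, adjusted p = 1.47e-05). When every cell was first thinned to 3500 UMIs, so that deep cells no longer weighed more, the difference in Paneth cells was 0.60 on the log2 scale and no longer passed (adjusted p = 0.130), from 15, 19, 66 and 58 UMIs, whereas in other cells it was 1.45 (adjusted p = 0.00260).

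Trp53inp1 (chr4:11156431-11174379, plus strand) encodes a stress-induced partner of p53 that also takes part in autophagy. Its counts in Paneth cells were 4.65 and 5.08 CPM in fl/fl and 10.3 and 9.95 CPM in IEC-KO. The libraries of a genotype lay close together and the genotypes far apart, by 2.07-fold (log2 1.05, SE 0.08, adjusted p = 3.34e-08). In other cells the counts were 3.16 and 3.27 CPM in fl/fl and 10.6 and 11.1 CPM in IEC-KO, a 3.38-fold difference (log2 1.76, SE 0.13, adjusted p = 1.82e-08). It was called higher in both classes after thinning, in thinned cells without a Ddit3 UMI, and under scaling by library size alone. At equal depth 1.45% and 1.33% of fl/fl other cells held a Trp53inp1 UMI against 3.50% and 3.40% in IEC-KO (unthinned 3.73%, 3.64%, 5.95% and 8.65%). The exact 95% intervals of the thinned shares, 0.899 to 2.21% and 0.747 to 2.19% in fl/fl and 3.05 to 3.98% and 2.94 to 3.90% in IEC-KO, cover counting error only, and no cell type that lacks the gene was at hand to gauge free RNA in the droplets.

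Ccng1 (chr11:40748552-40755311, minus strand) encodes cyclin G1, a p53 target that feeds back on Mdm2. In Paneth cells it was counted at 9.37 and 7.84 CPM in fl/fl and at 5.27 and 5.37 CPM in IEC-KO. Both knockout libraries lay below both controls, by 1.61-fold (log2 −0.69, SE 0.09, adjusted p = 1.82e-05). In other cells the values were 18.0 and 17.2 CPM against 15.2 and 14.4 CPM, a smaller fall (log2 −0.26, SE 0.08, adjusted p = 0.0241). That call was lost in 9 of 20 alternatives, among them leaving out fl/fl replicate 1 (log2 −0.21, adjusted p = 0.184), IEC-KO replicate 2 (log2 −0.21, adjusted p = 0.0894) and thinning (log2 −0.20, adjusted p = 0.399). In Paneth cells the call held in 14 of 15; with library size alone as the scale it stood at 0.01.

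**Figure D2:**
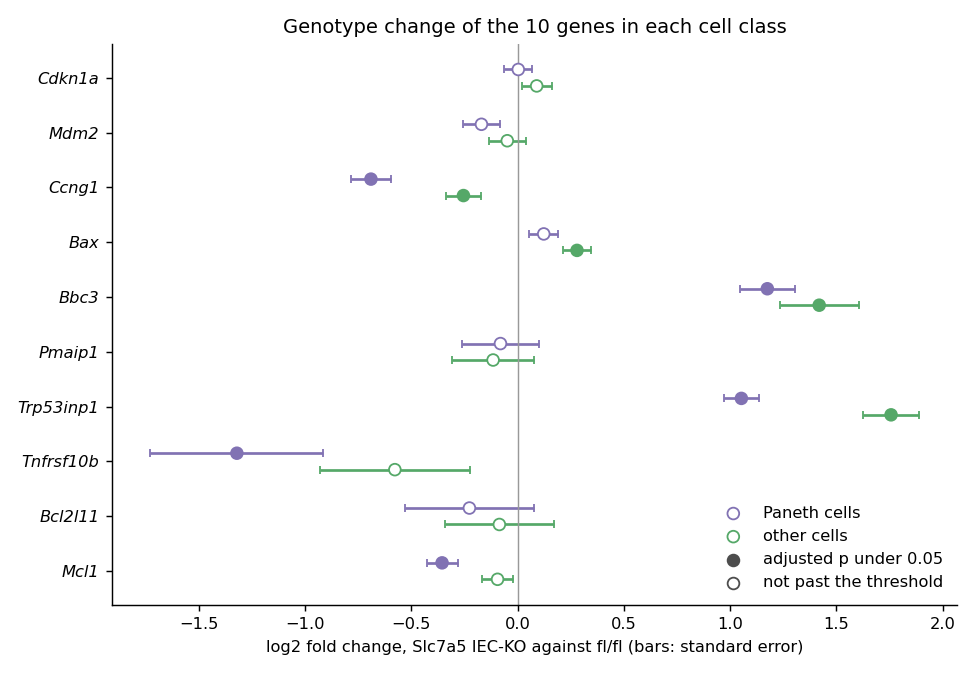
Log2 fold change of Slc7a5 IEC-KO against fl/fl (horizontal axis) for the 10 genes, in Paneth cells and in other cells, with bars of 1 standard error from the edgeR fit over 4 libraries. Filled points passed an adjusted p of 0.05. Bbc3 and Trp53inp1 lie between 1.05 and 1.76 in both classes, and Cdkn1a lies at 0.00 and 0.09.

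Cdkn1a (chr17:29090976-29100727, plus strand), which encodes the p21 inhibitor of cyclin-dependent kinases, was counted at 31.8 and 33.1 CPM in fl/fl and at 33.5 and 31.6 CPM in IEC-KO Paneth cells. The 4 libraries overlapped, with a log2 difference of 0.00 (SE 0.07, adjusted p = 0.979); with library size alone it was 0.70 and called higher (adjusted p = 3.71e-09), the same as the shift of the median gene on that scale. In other cells it stood at 87.3 and 99.3 CPM against 102 and 96.3 CPM (log2 0.09, SE 0.07, adjusted p = 0.369). An unnamed transcript, AC167363.2, overlaps it on the opposite strand.

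Mdm2 (chr10:117688875-117710758, minus strand), the ubiquitin ligase that degrades p53, stood at 5.74 and 5.87 CPM in fl/fl and at 5.17 and 5.15 CPM in IEC-KO Paneth cells. The libraries did not overlap, but the difference did not pass (log2 −0.17, SE 0.09, adjusted p = 0.129). In other cells they overlapped, at 13.4 and 13.8 CPM against 12.7 and 13.6 CPM (log2 −0.05, SE 0.09, adjusted p = 0.716). The gene of p53 itself, Trp53, rose in Paneth cells (log2 0.41, adjusted p = 3.85e-04) and fell in other cells (log2 −0.25, adjusted p = 0.0135). The fall did not pass in other cells rich (log2 −0.05, adjusted p = 0.659) or poor (log2 −0.30, adjusted p = 0.288) in goblet markers. Nor did it pass in dividing ones (log2 −0.29, adjusted p = 0.0584). It passed after thinning (log2 −0.32, adjusted p = 0.0206) and in cells with more goblet than enterocyte marker UMIs (log2 −0.28, adjusted p = 0.00983). The part of cell makeup in the fall was not tested. Mdm4, the other main inhibitor of p53, was at log2 0.15 and 0.18 and passed in neither class.

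Bax (chr7:45461697-45466898, minus strand), the pore former of the mitochondrial membrane, rose in other cells, from 92.8 and 91.3 CPM to 117 and 106 CPM (log2 0.28, SE 0.07, adjusted p = 0.00368). The groups did not overlap, though the rise is 1.21-fold. In Paneth cells the libraries also did not overlap, at 40.9 and 41.6 CPM against 47.0 and 43.0 CPM, but the difference did not pass (log2 0.12, SE 0.07, adjusted p = 0.161). Without IEC-KO replicate 2 the Paneth difference was 0.19 and passed (adjusted p = 0.0136). Under scaling by library size alone the calls changed places, with 0.82 called in Paneth cells and 0.14 not called in other cells. Bax overlaps the annotated gene Gm45808 on the same strand, so its counts are uncertain where reads could belong to either.

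Mcl1 (chr3:95658788-95663176, plus strand), the short-lived guardian, fell in Paneth cells, from 13.7 and 14.0 CPM to 11.2 and 10.6 CPM (log2 −0.36, SE 0.07, adjusted p = 8.46e-04). The groups did not overlap; with thinned cells the value was −0.29 and did not pass (adjusted p = 0.169), and with library size alone it turned to 0.34. In other cells the libraries overlapped, at 36.6 and 34.3 CPM against 34.3 and 32.2 CPM (log2 −0.09, adjusted p = 0.340).

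Tnfrsf10b (chr14:69767472-69784411, plus strand), the death receptor for the ligand Tnfsf10, was barely detected. It had 19 and 25 UMIs over all fl/fl Paneth cells and 7 and 8 in IEC-KO, or 0.244, 0.316, 0.139 and 0.0938 CPM. This was called lower (log2 −1.32, SE 0.41, adjusted p = 0.0150), but not without fl/fl replicate 2 (adjusted p = 0.115), without IEC-KO replicate 2 (adjusted p = 0.224) or by DESeq2 (adjusted p = 0.162). In other cells 12 and 18 UMIs in fl/fl and 25 and 29 in IEC-KO, from many more cells, gave a log2 difference of −0.58 (adjusted p = 0.231).

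The remaining BH3-only genes did not pass in either class. Pmaip1, which encodes NOXA, the antagonist of Mcl1, lies on chromosome 18 and was counted at 1.27, 1.15, 1.29 and 1.04 CPM in Paneth cells in the order fl/fl 1, fl/fl 2, IEC-KO 1 and IEC-KO 2 (log2 −0.08, SE 0.18). In other cells it was at 2.76, 3.88, 2.84 and 3.19 CPM (log2 −0.12, SE 0.19). Bcl2l11 (chr2:128126038-128162547, plus strand), which encodes BIM, was at 0.668, 0.379, 0.358 and 0.504 CPM in Paneth cells (log2 −0.23, SE 0.31) and at 1.44, 1.57, 1.27 and 1.52 CPM in other cells (log2 −0.09, SE 0.26). The libraries of the genotypes overlapped for both genes in both classes. Over the 10 genes, 7 did not overlap between genotypes in Paneth cells, where 71.0% of all genes did not, and 5 in other cells, where 66.0% did not.

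The scale matters in Paneth cells, where defensins took 56.2% and 58.7% of UMIs in fl/fl and 47.0% and 48.6% in IEC-KO. The part of this in the shifts below was not tested. With library size alone the median of all genes moved by 0.70 (log2) in Paneth cells and by −0.13 in other cells, and 7 members were called higher and 0 lower in Paneth cells, and 2 and 2 in other cells. On that scale Bbc3 stood at 1.88 and Trp53inp1 at 1.76 in Paneth cells, and at 1.28 and 1.62 in other cells, all of them called. Fewer cells with a gene on and less of its RNA per cell cannot be told apart in these sums.

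The difference of the genotype changes between the classes was tested in a model of all 8 sums with the library as a block, in which 24.6% of 12984 genes were called. Ccng1 fell more in Paneth than in other cells (difference of log2 changes −0.42, SE 0.10, adjusted p = 0.00101), Trp53inp1 rose less there (−0.69, SE 0.16, adjusted p = 3.30e-04) and Mcl1 fell more (−0.24, SE 0.08, adjusted p = 0.0160). For Bbc3 the difference was −0.23 (SE 0.21, adjusted p = 0.490), so no difference between classes was shown. The call was lost for Ccng1 without fl/fl replicate 1 (−0.33, adjusted p = 0.0868), and for Mcl1 without fl/fl replicate 2 (−0.18, adjusted p = 0.237), IEC-KO replicate 1 (−0.24, adjusted p = 0.0534) or IEC-KO replicate 2 (−0.25, adjusted p = 0.0598). After thinning those for Trp53inp1 (−0.55, adjusted p = 0.312) and Mcl1 (−0.18, adjusted p = 0.609) were lost, and with library size alone, where the median of all genes was 0.81, the values turned to 0.40, 0.13 and 0.58 in the order Ccng1, Trp53inp1 and Mcl1.

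The levels of the genes in the 2 classes could be compared in the same model. In fl/fl mice 6 members were called higher in Paneth than in other cells and 0 lower, where 58.4% of genes were called: Trp53inp1 by 2.11, Bbc3 by 1.40, Ccng1 by 0.48, Bax by 0.36, Mdm2 by 0.28 and Mcl1 by 0.16 on the log2 scale. The call for Mdm2 was lost without fl/fl replicate 1 (0.28, adjusted p = 0.0593) or fl/fl replicate 2 (0.28, adjusted p = 0.0503) and after thinning (0.39, adjusted p = 0.171), and that for Mcl1 without fl/fl replicate 2 (0.09, adjusted p = 0.400) and after thinning (0.16, adjusted p = 0.432). In IEC-KO, where 53.4% were called, Trp53inp1 (1.42), Bbc3 (1.17), Bax (0.21) and Mdm2 (0.17) were higher and Tnfrsf10b (−0.95) was lower, a call lost without IEC-KO replicate 1 (−1.13, adjusted p = 0.109) or IEC-KO replicate 2 (−0.71, adjusted p = 0.400). The IEC-KO call for Mdm2 was lost whichever of the 4 libraries was left out (0.12 to 0.23, adjusted p = 0.0580 to 0.326) and after thinning (0.07, adjusted p = 0.737), while Cdkn1a was called lower after thinning (−0.27, adjusted p = 3.09e-04). These directions hold relative to the typical gene only: as a share of all UMIs, defensins included, 9 members were called lower in fl/fl Paneth cells and 0 higher, and 8 lower and 1 higher in IEC-KO, with the median of all genes at −1.95 and −1.10.

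The rise of Bbc3 and Bax in the other class was then followed by goblet marker content, since the makeup of this class differed between genotypes. In cells with 4% or more of UMIs in goblet markers (1102, 823, 5432 and 5053 cells), 25.1% of 11941 genes and 4 members were called. Bbc3 had 25 and 15 UMIs in fl/fl against 209 and 255 in IEC-KO (log2 1.82, adjusted p = 7.53e-06), Trp53inp1 was higher by 1.78 and Bax by 0.33, and Ccng1 was lower (log2 −0.30). In cells under 4% (347, 304, 834 and 656 cells), 2.45% of 10009 genes and 0 members were called by edgeR, 1476 genes having an unadjusted p under 0.05. There Bbc3 had 20, 10, 21 and 17 UMIs (log2 −0.01, SE 0.39), Trp53inp1 11, 13, 15 and 30 UMIs (log2 0.54, SE 0.39) and Bax a log2 difference of 0.05 (SE 0.09). The stress genes were nonetheless higher in these cells, Trib3 by 6.41, Ddit3 by 2.02 and Atf4 by 0.47, all of them called.

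**Figure D3:**
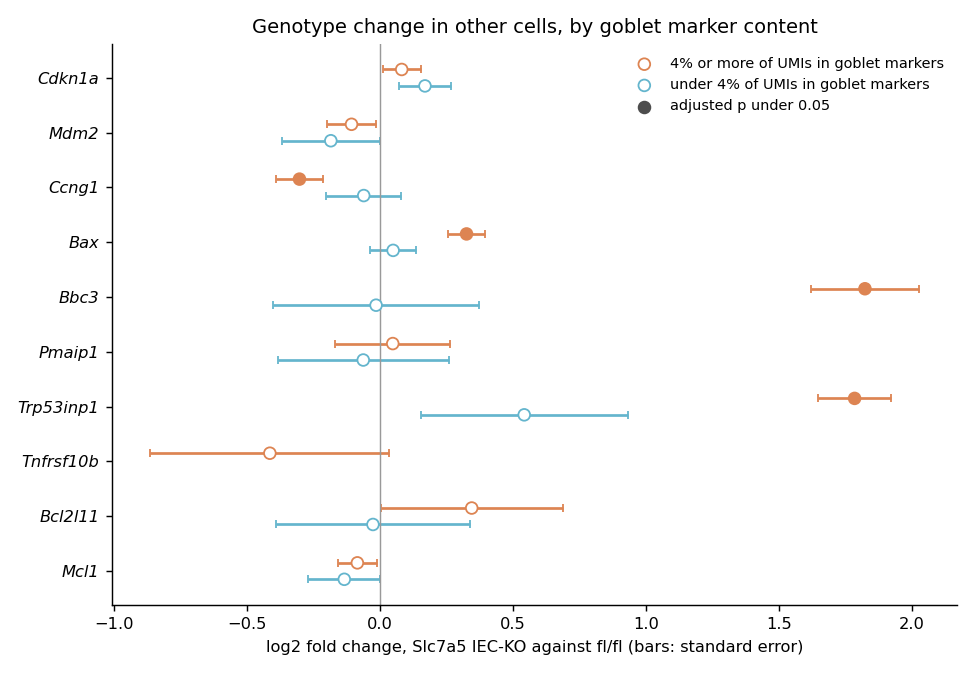
Log2 fold change of Slc7a5 IEC-KO against fl/fl (horizontal axis, bars of 1 standard error) for the 10 genes in other cells with 4% or more and with under 4% of UMIs in goblet markers; filled points passed an adjusted p of 0.05. Bbc3 lies at 1.82 in the first and at −0.01 in the second. Tnfrsf10b was too low to test in the second.

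These subsets were drawn after the data were seen, so the p-values for them come after that choice. The difference between the subsets was tested itself, with 9.73% of 11184 genes called. It was 1.86 on the log2 scale for Bbc3 (SE 0.43, adjusted p = 0.00671), 0.26 for Bax (SE 0.08, adjusted p = 0.0468) and 1.22 for Trp53inp1 (SE 0.42, adjusted p = 0.0829). Without fl/fl replicate 1 the value for Bbc3 was 1.50 and did not pass (adjusted p = 0.215), without IEC-KO replicate 2 that for Trp53inp1 was 1.73 and passed (adjusted p = 0.0169), and that for Bax was lost whichever of the 4 libraries was left out (adjusted p = 0.0791 to 0.190). Ddit3 itself rose more in the goblet-rich cells (difference 1.42, called). So did Chac1 (1.81), Asns (0.85) and Atf4 (0.55), all called. Trib3 stood at −0.03 (SE 0.36) and was not called. Its fl/fl counts were 0 and 2 UMIs in the cells under 4% and 14 and 10 in the goblet-rich cells. In IEC-KO, as a share of all UMIs, Trib3 stood at 23.5 and 24.6 CPM under 4% and at 88.8 and 88.8 CPM in goblet-rich cells. Among dividing other cells, marked by a UMI of Mki67 or Top2a after thinning, 10.4% of 10586 genes were called. Bbc3 (log2 0.99, adjusted p = 0.0476) and Trp53inp1 (log2 1.38, adjusted p = 0.0191) were both higher there.

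Ddit3, which encodes the factor CHOP, was used to split the cells of a library by the presence of its UMI. After thinning each cell to 3500 UMIs, 35.8% and 30.4% of IEC-KO Paneth cells held a Ddit3 UMI against 2.57% and 2.09% in fl/fl, and 27.2% and 27.5% of IEC-KO other cells against 3.66% and 3.55% (unthinned, 73.3% and 81.1% against 26.5% and 24.4%, and 40.5% and 50.4% against 12.8% and 12.4%). Knockout cells with and without such a UMI were compared within each library. The 4 sums of a class leave 1 degree of freedom beside library and state, and the spread was shared across genes.

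In Paneth cells of IEC-KO none of the 7 members tested was called, where 0.699% of 8443 genes were called by edgeR and 602 had an unadjusted p under 0.05. Bbc3 stood at 5.87 and 4.94 CPM in Ddit3-positive cells of the 2 libraries and at 7.38 and 5.42 CPM in negative cells (log2 −0.24, SE 0.28). Trp53inp1 stood at 15.1 and 12.5 CPM against 13.6 and 14.7 CPM (log2 −0.04, SE 0.18), and Cdkn1a at 35.8 and 40.1 CPM against 43.0 and 40.3 CPM (log2 −0.13, SE 0.11). Of the stress genes, 2 of 22 on the integrated stress response list were called there, Trib3 (log2 0.48) and Nupr1 (log2 0.14). The thinned cells held 1349 and 1221 Ddit3 UMIs over 2830 and 3122 cells, and at full depth most of these cells held one.

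In other cells of IEC-KO, 3 of 9 members tested were higher in Ddit3-positive cells and 0 were lower, where 15.2% of 10948 genes were called. Cdkn1a stood at 127 and 115 CPM in positive cells and at 91.9 and 90.2 CPM in negative cells, so both positive sums lay above both negative ones (log2 0.41, SE 0.06, adjusted p = 7.06e-11). Trp53inp1 stood at 14.8 and 13.3 CPM against 8.57 and 8.67 CPM (log2 0.70, SE 0.15, adjusted p = 8.79e-05). Bax stood at 121 and 110 CPM against 108 and 94.7 CPM (log2 0.18, SE 0.06, adjusted p = 0.0123). For Cdkn1a this is a difference between cells of the same libraries at a gene that did not pass the test between the genotypes.

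**Figure D4:**
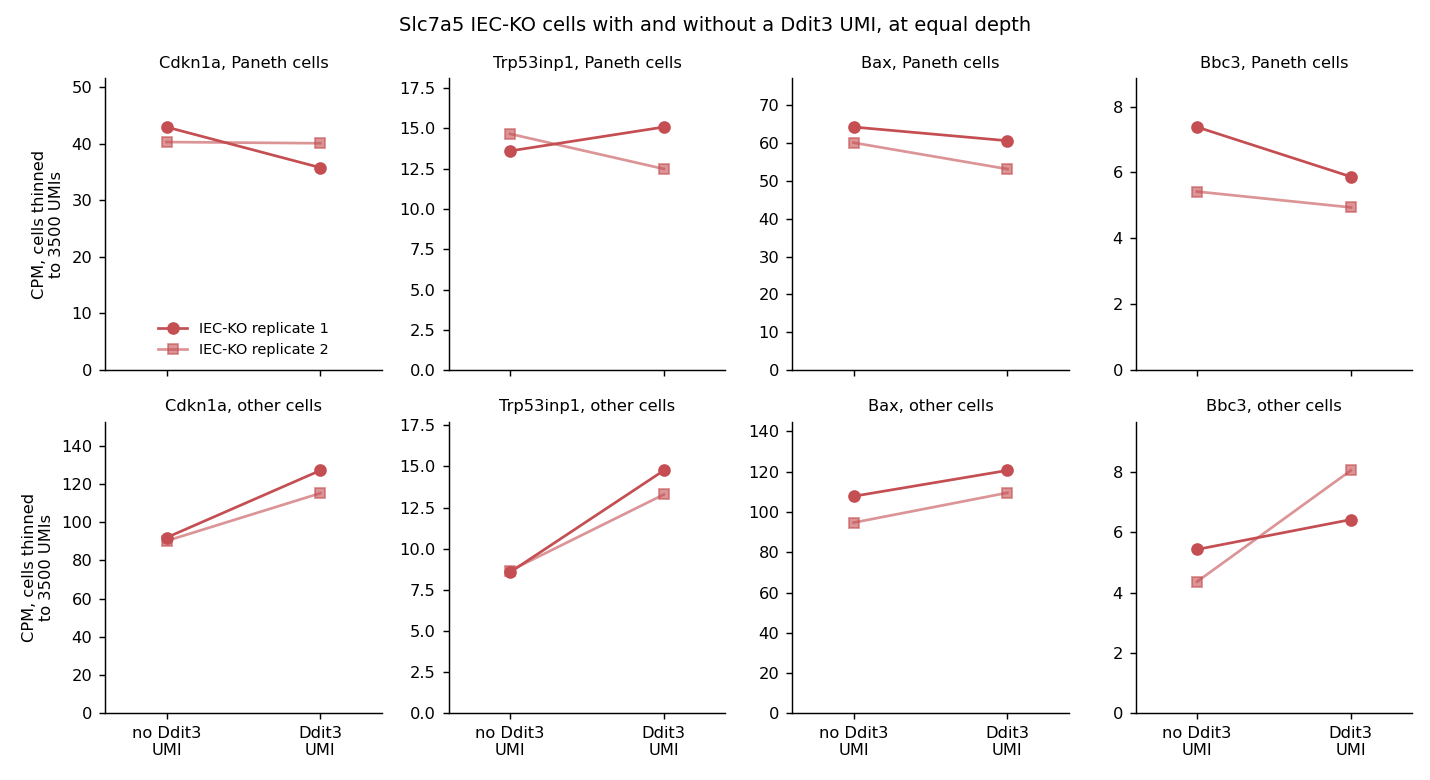
CPM (vertical axes, from 0, own scale for each panel) of Cdkn1a, Trp53inp1, Bax and Bbc3 in Slc7a5 IEC-KO cells without and with a Ddit3 UMI, all thinned to 3500 UMIs; each line is 1 library, Paneth cells above and other cells below. In other cells both lines climb in all 4 panels, with the test passed for the first 3 genes; in Paneth cells no gene passed.

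Bbc3 did not pass in other cells, at 6.42 and 8.05 CPM against 5.43 and 4.37 CPM (log2 0.55, SE 0.21, adjusted p = 0.0560). It passed when cells were split by a Trib3 UMI instead (log2 0.69, adjusted p = 0.0113). Split by Chac1 (log2 −0.10, adjusted p = 0.884) or Asns (log2 0.30, adjusted p = 0.313), it did not pass. Nor did it pass in the Ddit3 split of cells thinned by UMIs outside Defa (log2 −0.21, adjusted p = 0.879). Mdm2 (log2 0.25), Pmaip1 (0.32), Ccng1 (−0.18), Bcl2l11 (−0.15) and Mcl1 (−0.03) did not pass. Cdkn1a was called with each of Trib3 (0.32), Chac1 (0.30) and Asns (0.14) as the marker of the state. Trp53inp1 was called with Trib3 (0.64) and Asns (0.41) but stood at −0.01 with Chac1, and Bax was called with none of the 3. The call for Bax was lost in all 10 of its tested alternatives, a second random thinning included (0.15, adjusted p = 0.0692), and under that thinning Cdkn1a (0.40) and Trp53inp1 (0.73) were still called.

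The states also differed in cell type. All 8 division markers were lower in Ddit3-positive other cells, summing to 134 and 144 CPM against 237 and 264 CPM. All 7 goblet and all 6 Paneth markers were higher, 9 of 10 enterocyte markers were lower and 0 of 6 stem markers were called. The stem markers had a median log2 of −0.48, and with library size alone 3 of them were called lower and 0 higher. Within goblet-rich cells that held no Mki67 or Top2a UMI after thinning, 7.68% of 10295 genes were called. There Cdkn1a was higher by 0.40 (adjusted p = 5.10e-10) and Trp53inp1 by 0.49 (adjusted p = 0.0353), and Bax stood at 0.13 (adjusted p = 0.159). Dividing cells in which no such UMI was sampled can remain in this subset, and the part of cell makeup in these values was not tested. In fl/fl only 53 and 40 other cells and 54 and 42 Paneth cells were Ddit3-positive, and the difference of the state effects between genotypes passed for no member (0.936% of 10368 genes called in other cells, 0.24% of 8763 in Paneth cells, by edgeR, with 739 and 644 at an unadjusted p under 0.05).

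The genotypes were also compared in thinned cells in which no Ddit3 UMI was sampled. These cells are not free of Ddit3: at full depth 58.3% and 72.9% of such IEC-KO Paneth cells and 18.3% and 31.6% of such IEC-KO other cells held one, and Trib3 was higher in them than in the fl/fl cells by 6.05 and 6.29 on the log2 scale. Among thinned other cells with no Ddit3 UMI, where 16.5% of 10974 genes were called, Bbc3 (14, 5, 90 and 65 UMIs, log2 1.30, adjusted p = 0.00753) and Trp53inp1 (20, 15, 142 and 129 UMIs, log2 1.23, adjusted p = 3.52e-04) were higher. Among such Paneth cells, where 22.3% of 8886 were called, Trp53inp1 was higher (27, 37, 83 and 111 UMIs, log2 0.88, adjusted p = 6.77e-04), Ccng1 was lower (log2 −0.95, adjusted p = 3.08e-04), and Bbc3 did not pass (15, 19, 45 and 41 UMIs, log2 0.62, adjusted p = 0.127).

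The rest of the p53 pathway had calls in both directions. With library size alone, Paneth cells had 19 p53 targets called higher and 0 lower, 12 and 0 p53 regulators, 7 and 0 BCL2-family genes, 13 and 1 caspase-list genes and 10 and 0 death receptor genes, so the falls given here for Paneth cells hold relative to the typical gene. In other cells these counts were 8 and 9, 2 and 4, 2 and 2, 0 and 11, and 1 and 5. Of 31 further p53 targets tested in Paneth cells 10 rose and 8 fell, with a median log2 change of −0.17 beside 0.00 over all genes. Of 30 in other cells 11 rose and 8 fell, with a median of 0.16. The called shares were 58.1% and 63.3%, beside 42.1% and 31.9% of all genes. The largest rises were those of Gdf15, a secreted stress signal, by 4.26 and 5.28, and of Sesn2, a leucine sensor that restrains mTORC1, by 2.35 and 2.17; both genes are also on the stress response list. Ddit4, an mTORC1 inhibitor, rose by 0.98 in Paneth cells, and the kinase gene Plk2 by 1.37 in other cells. Falling targets in Paneth cells were led by the receptor gene Eda2r (−1.31), Sulf2 (−0.997) and Sesn1 (−0.97), a relative of Sesn2. In other cells they were led by Gtse1 (−1.12) and Psrc1 (−1.003), which act in mitosis, and by Sulf2 (−0.99); the division markers were lower there in IEC-KO, 8 of 8 of them called, and their part in this was not tested.

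Of 14 regulators of p53 tested, 3 rose and 2 fell in Paneth cells and 2 rose and 3 fell in other cells, a called share of 35.7% in each class and so near that of all genes (42.1% and 31.9%). The acetyltransferase gene Kat5 (0.32 and 0.49) and the ubiquitin ligase gene Rchy1 (0.18 and 0.42) rose in both classes. The checkpoint kinase gene Chek2 (−0.86 and −0.998) and the kinase gene Hipk2 (−0.35 and −0.55) fell in both.

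**Figure D5:**
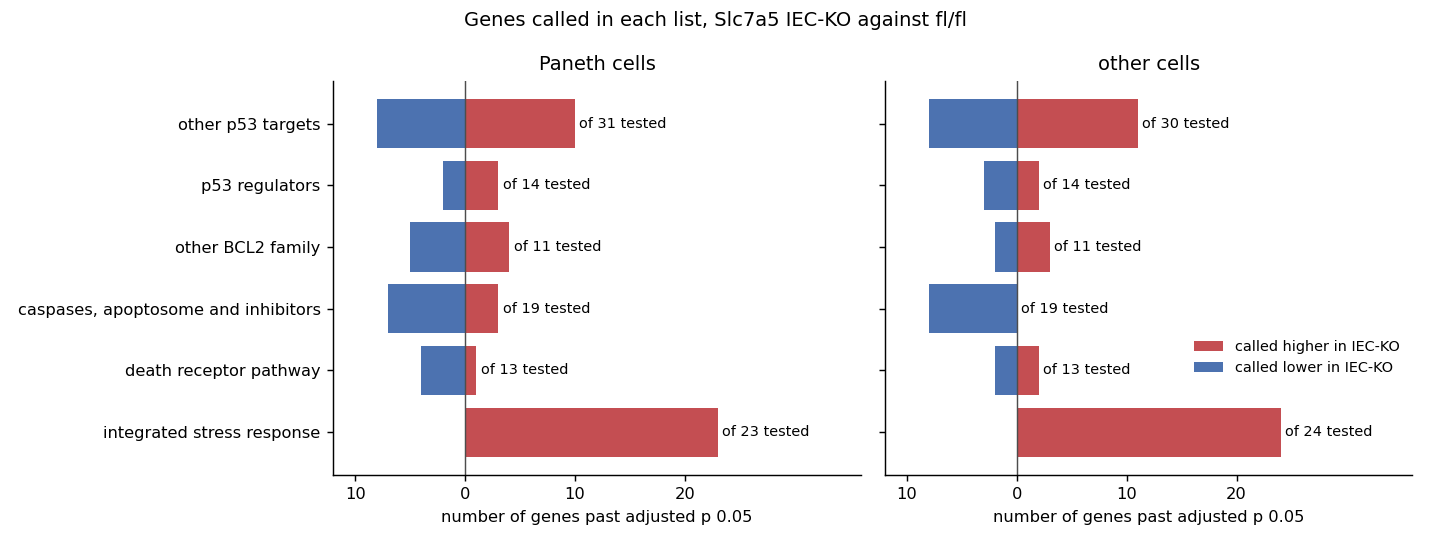
Number of genes (horizontal axis) past an adjusted p of 0.05 that were higher (right) or lower (left) in Slc7a5 IEC-KO than in fl/fl, for 6 gene lists in Paneth and other cells, with the number tested beside each bar. The 5 death and p53 lists have bars on both sides in Paneth cells, and the stress response list on the right side only.

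Of 11 further BCL2-family genes tested, 4 rose and 5 fell in Paneth cells and 3 rose and 2 fell in other cells (81.8% and 45.5% called, beside 42.1% and 31.9% of all genes). The rises were those of the mitophagy receptor genes Bnip3 (0.80 and 0.85) and Bnip3l (0.54 and 0.25), of the guardian Bcl2 in Paneth cells (0.51) and of Bid, which links death receptors to mitochondria (0.48 and 0.53). The pore formers Bok (−0.99 and −0.45) and Bak1 (−0.79 and −0.45) fell in both classes, as the BH3-only gene Bik did in Paneth cells (−0.54). Beside the rise of Bbc3, the pore formers moved apart in other cells on this scale, with Bax higher and Bak1 and Bok lower. The Bax call held in 15 of 20 alternatives. It was lost with library size alone (0.14, adjusted p = 0.0970) and in cells under 4% goblet markers (0.05, adjusted p = 0.842), among others.

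Of 19 genes of caspases, the apoptosome and their inhibitors, 3 rose and 7 fell in Paneth cells and 0 rose and 8 fell in other cells (52.6% and 42.1% called, beside 42.1% and 31.9% of all genes). The inhibitor gene Birc5, which also acts in mitosis, fell the most (−0.98 and −0.93). The apoptosome gene Apaf1 (−0.83) was next in Paneth cells and the nuclease gene Dffb (−0.78) in other cells, while the inhibitors Birc3 (0.54) and Birc2 (0.33) and their antagonist Diablo (0.39) rose in Paneth cells. Of 13 death receptor pathway genes, 1 rose and 4 fell in Paneth cells and 2 and 2 in other cells, so that 38.5% and 30.8% were called, near the 42.1% and 31.9% of all genes. Tnfrsf21 (0.93 and 0.97) rose in both classes, and the ligand gene Tnfsf10 (−0.96 and −0.88) and the receptor gene Fas (−0.68 and −0.47) fell in both.

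All 23 genes tested on the integrated stress response list rose in Paneth cells and all 24 in other cells; the list was drawn up with results of these samples known and so is no independent evidence. Within other cells of IEC-KO, 21 of 23 of its genes were also higher in Ddit3-positive cells. Of the further p53 targets 6 of 29 were higher there and 0 lower (4 and 3 with library size alone), led by Gdf15 (1.26), Plk3 (0.98) and Gadd45a (0.76), a growth-arrest gene that answers to both p53 and Atf4. Of the caspase list 4 of 19 were lower there, led by Birc5 (−0.76), and of the BCL2 family 1 of 9 was higher (Bnip3l, 0.22). Of the death receptor list 1 of 12 was higher (Tnfrsf1a, 0.34), and of the p53 regulators 1 of 14 (Rchy1, 0.27). These are 21.1%, 11.1%, 8.33% and 7.14% of the lists, beside 20.7% of the p53 targets and 15.2% of all genes. With library size alone, 0 were higher and 6 lower on the caspase list. For the BCL2 family the counts were then 0 and 1, for the death receptor list 0 and 1, and for the regulators 1 and 3. Of 17 genes known to respond to tissue dissociation, 7 rose and 2 fell between genotypes in Paneth cells and 6 rose and 1 fell in other cells (16 and 0, and 2 and 5, with library size alone), and their part in the changes above was not tested.

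Over the 8 sums of the 4 libraries and 2 classes, the genes whose log2 CPM followed that of Mdm2 most closely among 10994 genes with at least 10 UMIs in every sum were Bnip2 (Pearson r 0.991), Tfpi2 (0.988) and Lgr4 (0.987). For Cdkn1a they were Dnmt3b (0.896), Telo2 (0.875) and Blmh (0.871). The sums of a library share its depth. These genes were also picked as the highest of 10994 over only 8 sums that differ by class and genotype. The values are therefore a description.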

How the data were processed

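The data were UMI counts per gene and cell from 4 droplet libraries of sorted crypt cells, 2 per genotype. The counts were used as the authors deposited them: per the labels, reads were processed with Cell Ranger 2.1.1 against mm10, and the matrices hold called cells and raw counts. No value column was left out. The 10 members and all gene lists were chosen with earlier results of these data known. Genes were matched to GENCODE M21 by gene ID (27645 of 27998), and the 22 genes named Defa there set the classes (30% or more of UMIs, Paneth; under 20%, other). With the 13 genes that carry a Defa symbol in the deposited files, the Paneth class held 2020 and 1950 cells in fl/fl and 2019 and 2336 in IEC-KO, and no member's call between genotypes changed. Cells are not replicates, so counts were summed per library and class and tested with edgeR 4.0.16 (TMM, filterByExpr, glmQLFit, glmQLFTest), Benjamini-Hochberg adjustment over all genes tested and a threshold of 0.05. For the Ddit3 split each cell was thinned to 3500 UMIs (seed 1), which every cell reached, and Ddit3 left out. Doublets were not called; leaving out cells above the 95th percentile of UMIs of their class was an alternative. The scripts were tested on simulated data. Named genes were all 10 members, the state genes Ddit3, Trib3, Chac1, Asns and Atf4, Trp53, Mdm4, Slc7a5, the 3 largest rises and falls of each list among genes called (some are not reported here), and the 3 genes most like Cdkn1a and Mdm2; Bid in Paneth cells and the subsets by goblet markers were added after the values were seen. Intervals are exact Clopper-Pearson at 95%. The alternatives were library size only, DESeq2 1.42.0, stricter classes, thinning, filters on low counts, other state markers, a replicate block, and each library left out in turn. Figures were drawn with matplotlib 3.10.9.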

Additional observations from a re-analysis of the deposited data

Results flagged for a closer look

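Between groups, 5 differences in the members' change with genotype passed a test of the difference itself. The change with genotype was lower in Paneth cells than in other cells by a log2 difference of −0.42 for Ccng1, −0.69 for Trp53inp1 and −0.24 for Mcl1. The first 2 held without any single library except that Ccng1 was lost without fl/fl replicate 1 (−0.33, adjusted p = 0.0868), whereas Mcl1 was lost without 3 of the 4 libraries. After thinning to 3500 UMIs the calls for Trp53inp1 (−0.55, adjusted p = 0.312) and Mcl1 (−0.18, adjusted p = 0.609) were lost. All 3 differences turned positive, at 0.40, 0.13 and 0.58, with library size alone as the scale, where the median of all genes was 0.81. Outside the members, Trp53 (0.67, adjusted p = 5.09e-10), Slc7a5 (0.89), Chac1 (−1.47) and Asns (−0.22) also passed the test between classes. Ddit3, Trib3, Atf4 and Mdm4 did not. With library size alone, those that passed stood at 1.50, 1.71, −0.66 and 0.60 in the same order, all called.

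Among other cells, the change with genotype was larger in cells with 4% or more of UMIs in goblet markers than in cells under 4%, by 1.86 on the log2 scale for Bbc3 and by 0.26 for Bax. For Bbc3 the fl/fl level, as a share of all UMIs, was higher in the cells under 4% (5.14 and 2.62 CPM against 1.97 and 1.47). The subsets were drawn after seeing the data. Bbc3 was lost without fl/fl replicate 1 (1.50, adjusted p = 0.215), and Bax without each of the 4 libraries and with library size alone (0.20, adjusted p = 0.136). Of the stress genes, Ddit3 (1.42), Chac1 (1.81), Asns (0.85) and Atf4 (0.55) passed this test. Trib3 did not (−0.03), with 0 and 2 fl/fl UMIs in the cells under 4%.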

How the results depend on the processing

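With library size alone in place of the trimmed-mean scale, Paneth cells had 9465 genes called higher (2686 in the analysis reported) and 424 lower (2660), and 7 and 0 members (2 and 3), with Mdm2 at 0.53, Ccng1 at 0.0062, Pmaip1 at 0.62 and Mcl1 at 0.34. Other cells had 1171 and 3454 genes (1982 and 1949) and 2 members lower (1). The difference of the changes between classes had 9875 and 60 genes (1636 and 1553) and 7 and 0 members (0 and 3), with Cdkn1a at 0.75, Mdm2 0.71, Ccng1 0.40, Bax 0.68, Bbc3 0.59, Trp53inp1 0.13 and Mcl1 0.58. Paneth against other cells in fl/fl had 159 and 12034 genes (3549 and 4033) and 0 and 9 members (6 and 0), with Mdm2 at −1.65, Ccng1 −1.45, Bax −1.57, Bbc3 −0.53, Pmaip1 −1.85, Bcl2l11 −1.90 and Mcl1 −1.77. In IEC-KO this comparison had 247 and 11710 genes (3440 and 3492) and 1 and 8 members (4 and 1), with Mdm2 at −0.93, Ccng1 −1.05, Bax −0.89 and Pmaip1 −0.99. The Ddit3 split had 60 and 21 genes in Paneth cells (17 and 42) and 480 and 1399 in other cells (900 and 761). The difference of that split between genotypes had 0 genes higher in Paneth cells (21) and 15 and 18 in other cells (90 and 7), and the goblet difference had 1 member higher (2).

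DESeq2 called 1717 genes lower in Paneth cells and 1211 higher and 1124 lower in other cells, with 0 members lower there. After thinning to 3500 UMIs, Paneth cells had 1076 and 1064 genes and 1 and 1 members, other cells 1146 and 1127 genes and 0 members lower, the class difference 477 and 486 genes and 1 member lower, and Paneth against other cells 1474 and 1758 genes in fl/fl and 2033 and 2112 in IEC-KO. In thinned cells with no Ddit3 UMI, Paneth cells had 994 and 984 genes and 1 and 1 members, and other cells 912 and 904 genes and 0 members lower. Without cells above the 95th percentile of UMIs, 0 members were lower in other cells. Fewer cells or UMIs enter these fits by construction.

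Among other cells without more goblet than enterocyte marker UMIs, 61 and 38 genes and 0 and 0 members were called, with Ccng1 at 0.22 and Bax at −0.15. Cells with Mki67 or Top2a had 656 and 446 genes and 0 members lower. Cells under 4% goblet markers had 164 and 81 genes and 0 and 0 members, with Bbc3 at −0.0142, and in the Ddit3 split 8 and 10 genes and 0 members higher. With 1500 UMIs outside Defa, the split had 9 and 14 genes in Paneth and 386 and 264 in other cells. From Trib3 it had 11 genes higher in Paneth cells. From Chac1 it had 1 and 5 in Paneth cells and, in other cells, 1 member higher, with Trp53inp1 at −0.0055. From Asns it had 1 and 26 in Paneth cells and 1173 lower in other cells. Goblet-rich cells with no Mki67 or Top2a UMI had 461 and 330. The cause of these shifts was not tested.

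Leaving out 1 library gave 2120 to 2523 genes higher and 2183 to 2471 lower in Paneth cells, with 2 to 3 members higher and 2 to 3 lower. In other cells it gave 1402 to 2089 genes higher, 1412 to 2034 lower, 3 members higher and 0 to 1 lower. For the class difference it gave 989 to 1340 genes higher, 1045 to 1299 lower and 2 members lower. For Paneth against other cells it gave 4 to 6 members higher in fl/fl, and in IEC-KO 3 members higher and 0 to 1 lower. For the goblet difference it gave 0 to 2 members higher. In the Ddit3 split a left-out library leaves no residual degrees of freedom, so the report gives both libraries instead.

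With the replicate block (replicate number as a block) 2768 and 2742 genes were called higher and lower in Paneth cells and 2255 and 2222 in other cells, with 2 and 3 and 3 and 1 members, and no member's call changed. Deviations of same-numbered libraries correlated at 0.0265 in Paneth and 0.0355 in other cells. With 2 libraries per genotype, these values cannot show whether same-numbered libraries shared more than a number.

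Of 143 alternative values of members between genotypes in Paneth cells 128 kept their side of the threshold without a called value turning sign, and of 192 in other cells 175 did; among these, 9 and 12 values that were not called turned sign. Trp53inp1 was called in Paneth cells in 15 of 15. Rare transcripts set the limit of depth: Tnfrsf10b rests on 7 to 25 UMIs per library in Paneth cells, and Bbc3 after thinning on 5 to 127 in other cells.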
